A study of Ettlia oleoabundans with 10 samples.

Results

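A set of 118 transcript families of the green alga Ettlia oleoabundans, out of 10122 measured, had low levels in every culture with 0.75 mM nitrate or less. They were chosen on log2(value + 1). A member had to lie at least 1 log2 unit, or 2-fold, below the lowest of the 1.5, 3 and 9 mM nitrate cultures in each of the 0, 0.38 and 0.75 mM cultures. It also had to be not lowered by that margin in both the 300 and the 600 mM NaCl cultures. The nitrate condition was met by 129 families, and the salt condition removed 11 of them. The low values below 1.5 mM nitrate therefore chose the members and are given as a description. The libraries of 75 and 150 mM NaCl played no part in the choice. "Kept in salt" describes the members only in part: 62 of the 118 were at least 2-fold below the lowest higher-nitrate value at 600 mM NaCl (10.7% of all families), 1 was so at 300 mM (6.31%), and 55 were so at neither. All families here are the 9012 whose mean value over the libraries reached 1.

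The study grew strain UTEX # 1185 of this unicellular, oil-storing alga for 6 days on light alone and sequenced poly(A)-selected RNA, with 1 library for each of 10 conditions. The limited cultures had 0, 0.38 or 0.75 mM nitrate, and the others of the nitrate series had 1.5 or 3 mM. The salt cultures had 75, 150, 300 or 600 mM NaCl. The control had 9 mM nitrate and 42 mM NaCl and served both series. The labels give no nitrate concentration for the salt cultures and no NaCl concentration for the other nitrate cultures, and all cultures were kept at 25 °C. No value has a replicate error. In these bulk cultures, fewer cells holding a transcript and less of it per cell cannot be told apart.

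Green algae take up nitrate through transporters, reduce it to nitrite and then to ammonium with nitrate reductase and nitrite reductase, and build the ammonium into glutamine and glutamate. When nitrogen runs short, oil-storing green algae slow protein synthesis, lower their chlorophyll and photosynthetic proteins and store carbon as starch and triacylglycerol. Raised NaCl is an osmotic and an ionic stress, met in green algae by ion export and by small organic solutes such as glycerol and proline. Which of these functions the members serve is unknown here, because the files number the families without names, and no lists of pathway genes could be matched to them.

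Values are deposited expression levels that look scaled for length and depth, and their read depth is unknown. Library totals ran from 362924 to 695913, and between 380 and 1263 families per library were listed at 0. The median log2 ratio to the control over all families was 0.21, 0.35, 0.23 and 0.07 with rising NaCl, 0.18 without nitrate and between -0.05 and 0.08 in the other nitrate libraries. Titles of the 0.38 mM nitrate library and the 150 mM NaCl library hold a code beginning with RAA, whereas the other 8 are coded c1 to c8. The sources used here do not give their meaning.

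The 118 families together took up 1.11, 1.40 and 1.82% of the library total at 0, 0.38 and 0.75 mM nitrate. Their share was 10.6, 12.5 and 9.35% at 1.5, 3 and 9 mM. With 75, 150, 300 and 600 mM NaCl it was 7.99, 5.41, 8.12 and 4.30%. Every salt library thus lay below the control and above the 3 low-nitrate libraries in this share. The rule itself keeps the low-nitrate shares down. The members' summed value was 44613 in the control and 47195, 32807, 56530 and 24591 with rising NaCl, so it was not lower in every salt library. At 75 and 300 mM NaCl the lower share went with a larger library total, 590316 and 695913 against 477174. Among the 50 most abundant families of a library, 0 were members at 0, 0.38 and 0.75 mM nitrate. Members numbered 10, 16 and 10 at 1.5, 3 and 9 mM nitrate, and 5, 3, 6 and 5 at 75, 150, 300 and 600 mM NaCl. The 10 most abundant members held between 36.6% and 44.7% of the members' summed value in any library.

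**Figure D1:**
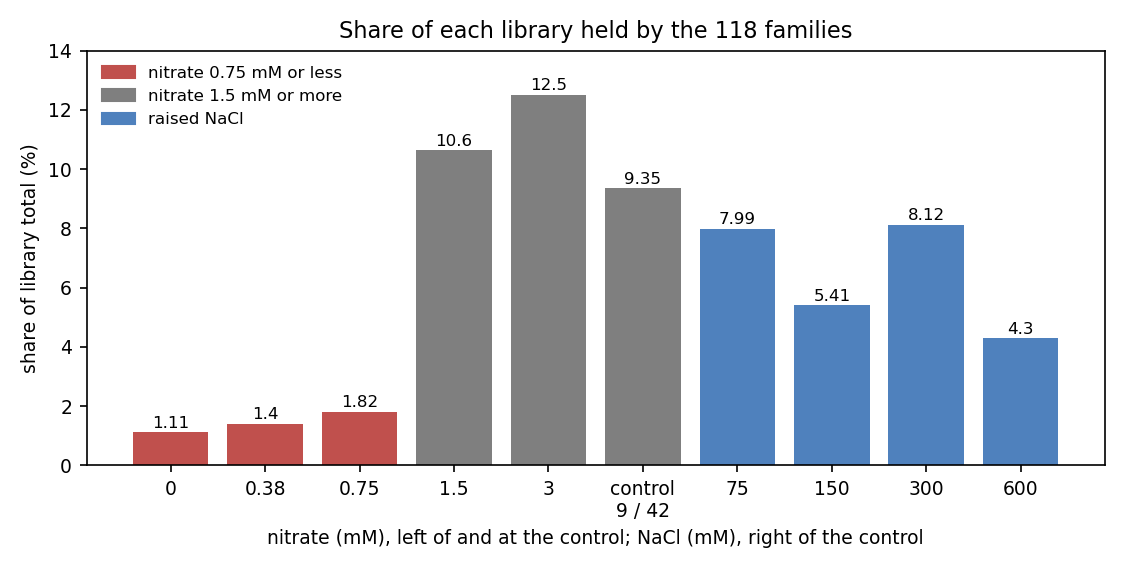
Share of each library's summed expression value held by the 118 families, in percent, with 1 library per bar and no error. The bars of 0 to 0.75 mM nitrate stand at 1.11 to 1.82%, those of 1.5 to 9 mM at 9.35 to 12.5% and those of raised NaCl at 4.30 to 8.12%.

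The median member had log2 ratios to the control of -2.04, -2.30 and -1.82 in the low-nitrate libraries, against 0.14 and 0.38 at 1.5 and 3 mM. All 118 were at least 2-fold below the control in each low-nitrate library, as the rule requires, where 11.7, 14.9 and 4.44% of all families were so. The largest rise between neighbouring concentrations lay between 0.75 and 1.5 mM in 114 members (17.8% of all families) and between 0.38 and 0.75 mM in the other 4. The rule requires a gap of at least 2-fold between 0.75 and 1.5 mM, so it largely sets the place of this rise. The median size of the step between 0.75 and 1.5 mM was 1.99 log2 units. The value at 0.75 mM was the highest of the low-nitrate libraries in 75 members (28.5% of all families), and the value at 0.38 mM was the lowest in 66 (47% of all families). Of the 118, 26 (22%) had values in the order 0, 0.38, 0.75 mM from low to high (11.8% of all families).

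Above the step, the rule used only the lowest of the 3 libraries and not their order. The value at 3 mM was the highest of the 3 in 98 members (41.9% of all families), and the control was the lowest in 83 (43.2% of all families). At 3 mM nitrate, 3 members were at least 2-fold above the control (0.499% of all families) and 1 was at least 2-fold below it (1.39%). The 1 below was 3095_c0, and the 3 above were 282_c0, 11_c0 and 1874_c0. The median log2 ratio of all members at 3 mM was 0.38, against 0.08 over all 9012 families. With the libraries rescaled by median ratios it was 0.29, and 0 members were then at least 2-fold above the control.

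**Figure D2:**
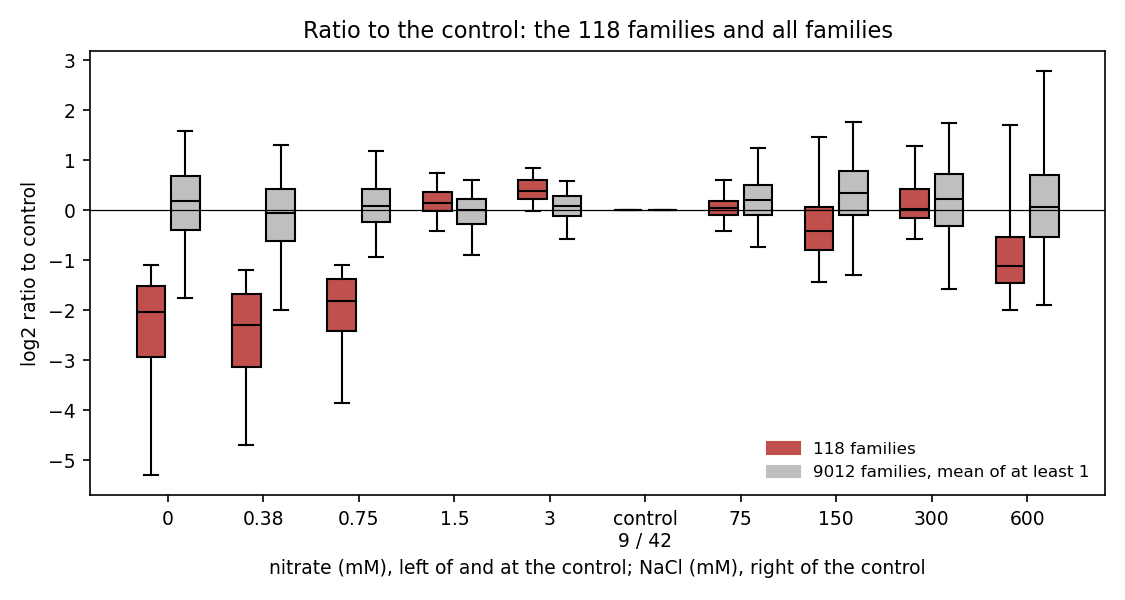
Log2 ratio to the control, on log2(value + 1), in each library for the 118 families (red, left of each pair) and all 9012 families (grey). Boxes span the quartiles with the median, and whiskers the 5th to 95th percentile of families; the members' medians stand at -2.04, -2.30 and -1.82 below 1.5 mM nitrate and at 0.04, -0.43, 0.02 and -1.12 with rising NaCl.

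The 4 members with the highest control value were 27_c0, 264_c0, 0_c0 and 62_c1, and not all of them are typical of the set. Families 27_c0, 0_c0 and 62_c1 lay further below the control than the median member in each low-nitrate library. Family 27_c0 had 28.6, 49.8 and 196 in the low-nitrate libraries, 3278, 5316 and 2984 at 1.5, 3 and 9 mM, and 2957, 1863, 4074 and 1562 with rising NaCl. Family 0_c0 had 15.7, 22.2 and 129 in the low-nitrate libraries, 2559, 3416 and 2732 at 1.5, 3 and 9 mM, and 3108, 1536, 4512 and 1613 with rising NaCl. Both had graded values below 1.5 mM nitrate, lowest at 0 mM, and stayed within 2-fold of the control in all 4 salt libraries. Family 62_c1 had 51.0, 79.8 and 202 in the low-nitrate libraries and 2263, 2726 and 2051 at 1.5, 3 and 9 mM, and then 1920, 804, 2208 and 658 with rising NaCl. It was more than 2-fold below the control at 150 and 600 mM NaCl but not at 300 mM. Family 264_c0 was the least reduced of the 4, with 785, 358 and 841 in the low-nitrate libraries against 3326, 4240 and 2877 at 1.5, 3 and 9 mM. Its values with rising NaCl were 3331, 1212, 3655 and 1153, the same alternation as in 62_c1.

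The widest gaps between low and high nitrate were in 108_c0, 11_c0, 720_c0 and 0_c0. On log2(value + 1), the lowest value from 1.5 to 9 mM lay 6.17, 6.03, 5.32 and 4.30 units above the highest value from 0 to 0.75 mM. Family 108_c0 was listed at 0 without nitrate and had 0.66 at 0.38 mM and 0.56 at 0.75 mM, against 123, 169 and 119 at 1.5, 3 and 9 mM. Family 11_c0 was also listed at 0 without nitrate, and had 0.60, 0.59, 212, 214 and 103 at 0.38, 0.75, 1.5, 3 and 9 mM. These were the only 2 members listed at 0 in any library. Family 720_c0 had 0.39, 2.34 and 15.5 in the low-nitrate libraries, 701, 1303 and 655 at 1.5, 3 and 9 mM, and 735, 676, 1590 and 587 with rising NaCl. Its value was therefore within 2-fold of the control in 3 salt libraries and 1.28 log2 units above it at 300 mM.

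At the edge of the nitrate condition, 6105_c0 and 2833_c0 were just inside, with gaps of 1.003 and 1.012 log2 units. Family 6105_c0 had 8.91 as its highest low-nitrate value against 18.9 as its lowest higher-nitrate value, and 2833_c0 had 29.8 against 61.1. Families 1916_c0 (42.8 against 86.5) and 387_c0 (47.7 against 94.95) were just outside it. At the edge of the salt condition, 2300_c0 and 712_c0 stayed in, with smaller drops at 300 or 600 mM NaCl of 0.996 and 0.984 log2 units, whereas 10376_c0 and 1248_c0 were left out with 1.233 and 1.349.

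In the 75 mM NaCl library, which the rule did not use, most members lay within 2-fold of the control, as did most of all families. Of the 118, 0 were at least 2-fold below the control (2.79% of all families) and 4 were at least 2-fold above it (7.35%). These 4 were 108_c0, 11_c0, 154_c0 and 1809_c1. The median log2 ratio of the members at 75 mM NaCl was 0.04, against 0.21 over all families, and with the libraries rescaled by median ratios it was -0.21, against -0.01 over all families, and 2 members were then at least 2-fold lower (4.57% of all families) and 2 at least 2-fold higher (5.17%). At 75 mM NaCl 0 members lay at least 2-fold below the lowest higher-nitrate value (1.07% of all families). The control is 1 of the libraries the rule used, so these ratios share it with the choice of members.

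At 150 mM NaCl 22 members were at least 2-fold below the control (6.91% of all families) and 8 were at least 2-fold above it (17.4%). The members' median log2 ratio was -0.43, against 0.35 over all families. With median-ratio scaling the same values were -0.81 for the members and 0.00 over all families, and 45 members were at least 2-fold lower (10.7% of all families under that scaling) and 7 at least 2-fold higher (9.2%). By the measure of the rule, 20 members lay at least 2-fold below the lowest higher-nitrate value at 150 mM NaCl (5.33% of all families). The value at 150 mM NaCl was below those of both 75 and 300 mM in 78 members (30.3% of all families) and above both in 19 (45.9%). The 150 mM library carries an RAA code, as does 0.38 mM nitrate, and in 52 members both libraries lay below their 2 neighbouring concentrations (23.6% of all families). The part of the code in this dip was not tested.

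A linear change over the 3 lowest NaCl concentrations, 42, 75 and 150 mM, was tested in the 8744 families whose mean over these libraries reached 1. The test was the slope on rank in limma with Benjamini-Hochberg adjustment, with 1 library per concentration. Its error combined the scatter of single cultures around the line with a prior variance pooled over the tested families. The scatter had 1 residual degree of freedom per family, and the prior had 4.9. The standard errors and p-values of this fit therefore rest more on the prior than on a family's own cultures. Of the members, 3 rose (rising among all families: 1.46%) and 0 fell (falling among all families: 0.423%). At an unadjusted p under 0.05, 9 members had a positive slope and 13 a negative one, where 17.9% and 5.92% of all families did. The control, at 42 mM, is 1 of the libraries whose lowest value chose the members, so these slopes share it with the rule. The median slope of the members was -0.21 log2 units per step, against 0.19 over all families.

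The 3 that rose were 154_c0, 11_c0 and 108_c0. The slope of 154_c0 was 1.61 ± 0.19 (SE) log2 units per step, with an adjusted p of 0.0285 in limma. That of 11_c0 was 1.81 ± 0.25 (limma, adjusted p = 0.0352), and that of 108_c0 was 2.04 ± 0.31 (limma, adjusted p = 0.0427). All lost the call when no filter on low values was used (limma, adjusted p = 0.305), a fit in which 0 of 10122 families were called, and 1212 had a positive and 435 a negative slope at an unadjusted p under 0.05. Over the 7 alternatives their adjusted p (limma) ran from 0.0237, 0.0259 and 0.0267 to 0.305. The balance of directions depended on scaling: all families gave 128 rising and 37 falling as deposited, 97 and 99 with median-ratio scaling and 119 and 107 with equal library totals. Median-ratio scaling called 2 members as rising, 154_c0 and 11_c0 (rising among all families: 1.11%), and 3 as falling, 248_c0, 3095_c0 and 2280_c0 (1.13%), and 7 and 40 members had a positive and a negative slope at an unadjusted p under 0.05 (8.69% and 11.3%). Equal library totals called those 3 as falling (1.22%) and 154_c0, 11_c0 and 108_c0 as rising (1.36%), with 7 and 44 members at an unadjusted p under 0.05 (9.3% and 10.5%). The 150 mM library is the RAA library, and without it 2 libraries remain and no test can be made.

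At 300 mM NaCl the members had a median log2 ratio of 0.02 against 0.23 over all families, and of -0.24 against -0.01 with median-ratio scaling. With equal library totals it was -0.52 against -0.27, and 8 members were then at least 2-fold lower (18.8% of all families) and 5 at least 2-fold higher (7.9%). At 300 mM, 1 member was at least 2-fold below the control (10.3% of all families), a count the rule itself holds down, and 7 were at least 2-fold above it (15.4%). At 600 mM NaCl 63 members were at least 2-fold below the control (13.6% of all families) and 9 at least 2-fold above it (17.5%). The median there was -1.12 against 0.07 over all families, and -1.19 against 0.00 with median-ratio scaling. From 300 to 600 mM NaCl 110 of the 118 members had a lower value at 600 mM (58% of all families), 74 of them by at least 2-fold (11.4% of all families). Across the 4 raised NaCl libraries together, 42 members stayed within 2-fold of the control (52.8% of all families). The counts at 300 and 600 mM rest on libraries that chose the members, and nothing is read from them about the members as a class. The 55 members lowered at neither concentration had a median log2 ratio of 0.00 at 150 mM NaCl and -0.53 at 600 mM, and the 62 lowered at 600 mM had medians of -0.74 and -1.46. These groups were split by their own values at 300 and 600 mM, so the difference at 600 mM follows from the split.

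**Figure D3:**
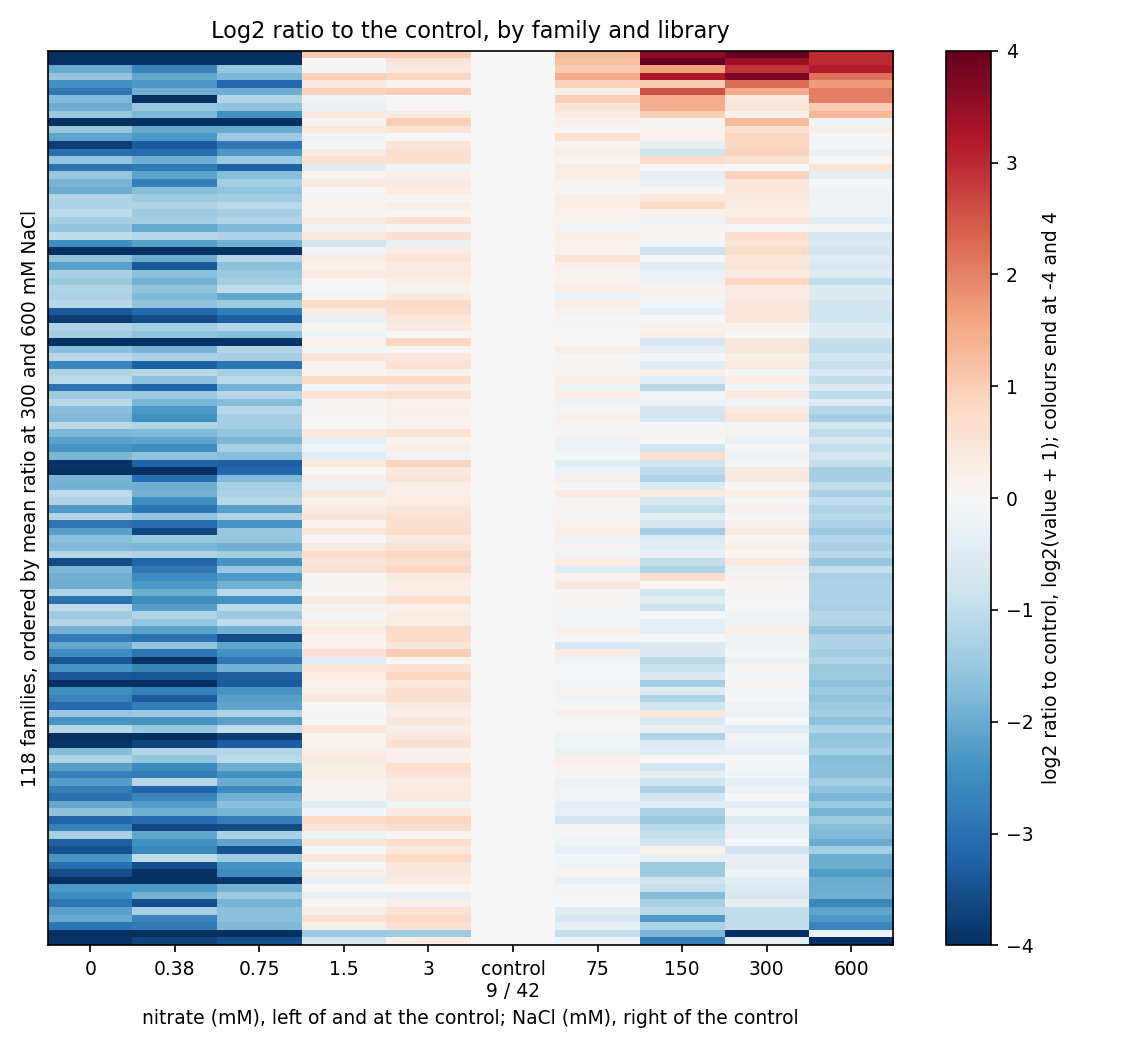
Log2 ratio to the control, on log2(value + 1), of each of the 118 families (rows, ordered by their mean ratio at 300 and 600 mM NaCl, highest at the top) in each library (columns). All rows are blue in the 3 low-nitrate columns; 9 families near the top exceed the control by at least 2-fold at 600 mM NaCl, and 63 rows are at least 2-fold below it there.

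Some members had values far above the control in salt. Of the 118, 6 (5.08%) exceeded the control by at least 2-fold in the 150, 300 and 600 mM NaCl libraries alike, a share near that of all families (5.77%): 108_c0, 11_c0, 154_c0, 1809_c1, 1874_c0 and 2823_c0. Family 108_c0 had 119, 269, 2022, 1272 and 945 at 42, 75, 150, 300 and 600 mM NaCl. Family 11_c0 had 103, 253, 1279, 1881 and 826 over those concentrations. Both also had the widest nitrate gaps, were listed at 0 without nitrate and were among the members furthest above the control in salt. Family 154_c0 had 57.2, 163, 543, 778 and 261 from the control to 600 mM NaCl, after 19.0, 13.1 and 15.3 in the low-nitrate libraries. Family 1809_c1 was the only one of these 4 whose value was highest at 600 mM, with 11.6, 25.3, 37.3, 92.1 and 111, and its low-nitrate values were 2.15, 0.96 and 3.35.

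The other members past 2-fold above the control in the 600 mM library were 1874_c0, 2823_c0, 267_c0, 1149_c0 and 5419_c0, singled out after their values were seen. Family 267_c0 had 218, 429, 610, 283 and 882 from the control to 600 mM NaCl, and 63.2, 12.7 and 93.1 in the low-nitrate libraries. Family 1874_c0 peaked at 150 mM with 377, against 64.0 in the control, and had 181 and 265 at the higher concentrations. The log2 ratios of the 9 families at 600 mM ran from 1.02 (5419_c0) to 3.15 (1809_c1).

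At the other end, 7378_c0, 3095_c0, 2300_c0 and 248_c0 had the lowest values relative to the control in salt. Family 7378_c0 had 20.9, 19.0, 2.26, 15.6 and 0.17 from the control to 600 mM NaCl, and 0.44, 0.67 and 0.91 in the low-nitrate libraries. Its value at 600 mM was listed lower than in any nitrate library, but it and the low-nitrate values all lay below 1. With read depth unknown, the order of these values is uncertain. Family 3095_c0 was the 1 member lowered at 300 mM NaCl and not at 600 mM, with 145 in the control, 73.8, 39.6, 7.17 and 129 with rising NaCl, and 50.6 and 52.7 at 1.5 and 3 mM nitrate. Its control value was the highest of all 10 libraries. Family 248_c0 had 104 in the control, 64.6, 20.7, 52.8 and 20.2 with rising NaCl, and 24.9, 16.0 and 32.2 in the low-nitrate libraries. The values of 248_c0 at 150 and 600 mM NaCl thus fell within its low-nitrate range. Family 2300_c0 had 110 in the control and 83.9, 45.2, 54.8 and 16.8 with rising NaCl, against 13.8, 14.7 and 32.1 in the low-nitrate libraries.

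**Figure D4:**
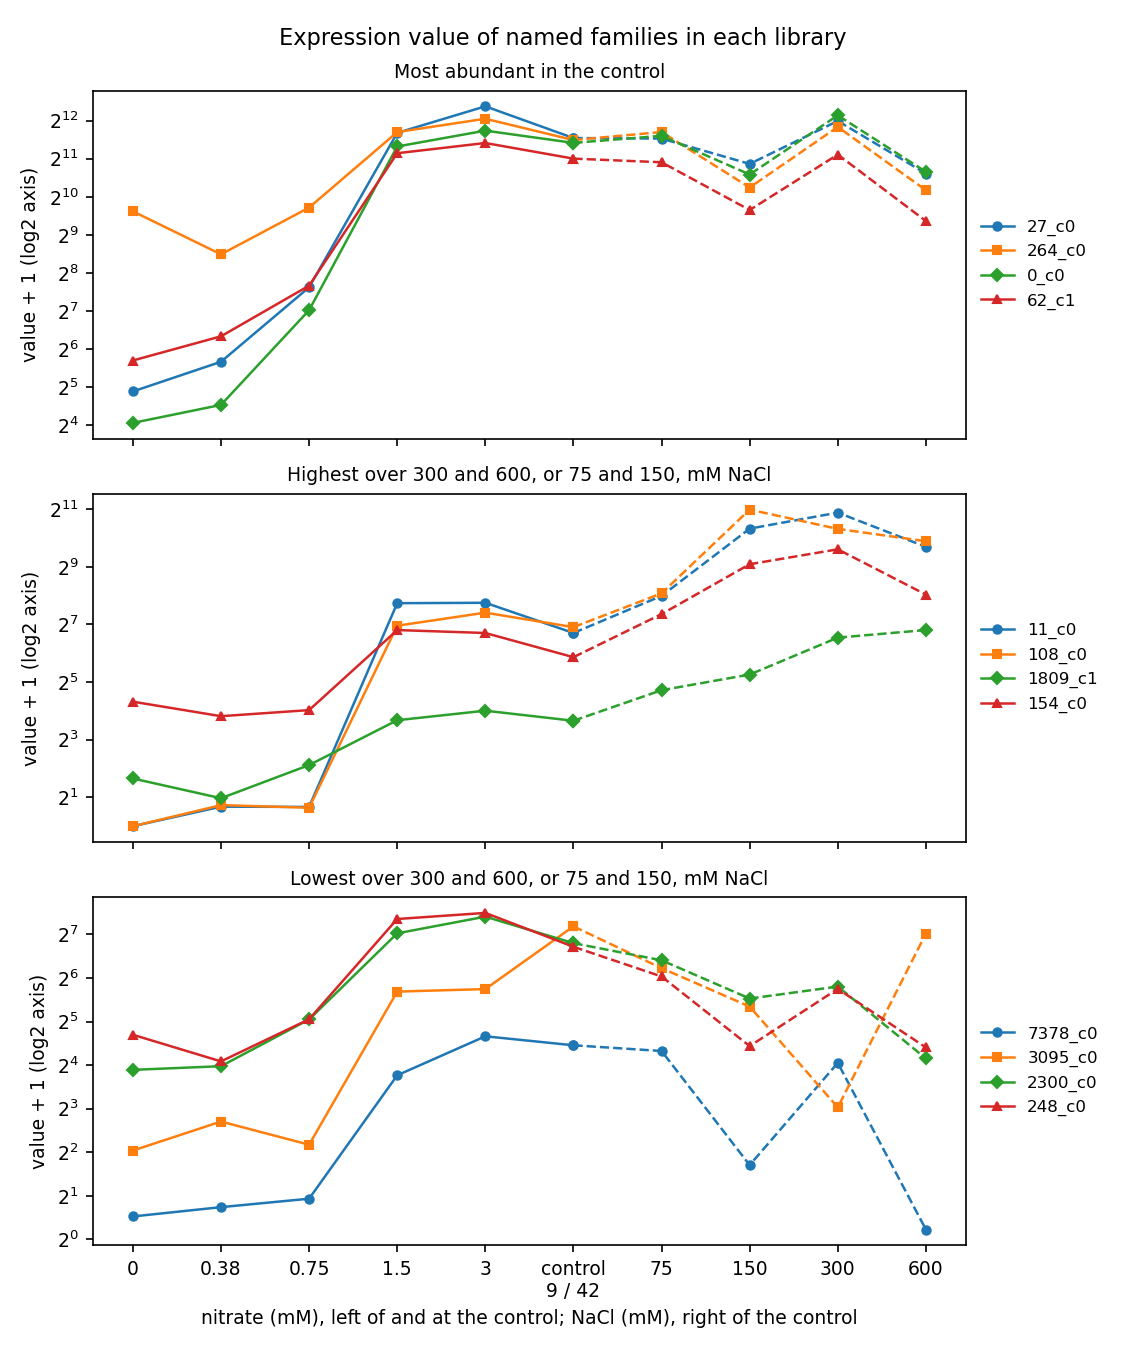
Expression value + 1, on a log2 axis, of named families in each of the 10 libraries, with the nitrate series as solid lines and the NaCl series as dashed lines from the shared control. The upper panel shows 4 abundant members, the middle one members far above the control in salt, such as 108_c0 at 2022 at 150 mM, and the lower one members with the lowest values, such as 7378_c0 at 0.17 at 600 mM NaCl.

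Members were more frequent among abundant families. They made up 33 of the 157 families with a control value of at least 500 (21.0%), 32 of the 632 with 100 to 500 (5.06%) and 53 of the 8223 with less than 100 (0.645%). The log2(value + 1) scale makes the 2-fold margin harder to reach for low families. The most abundant 33 members had medians of the log2 ratio to the control of -3.01, -3.22 and -2.51 at 0, 0.38 and 0.75 mM nitrate, against -1.54, -1.77 and -1.47 for the 53 with a control value under 100. All 157 families with at least 500 had 0.30, -0.72 and -0.10 there, and the 8223 with less than 100 had 0.19, 0.00 and 0.10. The low-nitrate libraries and the control chose the members, so these member medians are a description. Adding 1 also makes the ratios of low families smaller. In salt, the same 33 had medians of 0.07, -0.73, 0.11 and -1.39 with rising NaCl. All 157 families of that abundance, the 33 members included, had medians of 0.32, 0.08, 0.44 and -0.53. Medians of the 157 without the members were not computed. The 53 least abundant members had medians of 0.00, -0.16, 0.02 and -0.97. Of the 9 members above the control by that margin at 600 mM NaCl, 0 had a control value of at least 500, 4 had 100 to 500 and 5 had less than 100.

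**Figure D5:**
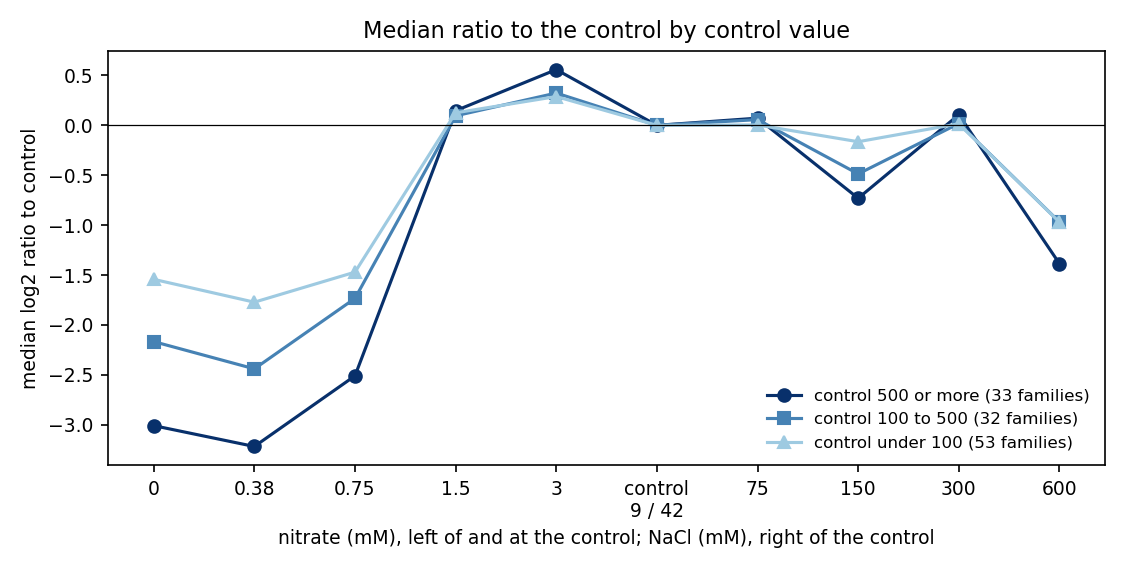
Median log2 ratio to the control, on log2(value + 1), in each library for members with a control value of at least 500 (33), 100 to 500 (32) and under 100 (53). The most abundant members have the lowest medians in the low-nitrate libraries (-3.01, -3.22 and -2.51) and at 150 and 600 mM NaCl (-0.73 and -1.39). The low-nitrate libraries and the control were used to choose these members.

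Nitrate limitation and salt can be set side by side without the control, between libraries whose title codes begin alike. What a shared beginning stands for is not given. Between the RAA libraries, all 118 members were lower at 0.38 mM nitrate than at 150 mM NaCl, 107 of them by at least 2-fold (22.7% of all families), with a median log2 difference of -1.92 against -0.39 over all families. Between the libraries coded c6 and c3, all 118 were lower at 0 mM nitrate than at 75 mM NaCl, 115 of them by at least 2-fold (13% of all families), with a median of -2.24 against -0.03. The low-nitrate side of each comparison was used to choose the members, so these are values of single libraries and not a test.

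Family identifiers hold a number and a suffix, and some families share a number. No source used here says what a shared number stands for. Of the members, 11 (9.32%) shared their number with another family, against 498 of the 10122 families (4.92%). The 10122 include families with a mean value under 1, which no member has, so these shares have unlike bases. The 12 partner families of the members included 2 members, 62_c0 and 62_c1, which are each other's partners. Family 62_c0 had 45.8, 53.4 and 64.7 in the low-nitrate libraries, 520, 875 and 646 at 1.5, 3 and 9 mM, and 629, 638, 891 and 370 with rising NaCl. Unlike 62_c1, with 804 against 2051 in the control, 62_c0 was level at 150 mM NaCl, with 638 against 646. The other 10 partner families did not meet the nitrate condition. Family 1137_c4 and its partner 1137_c1, singled out after their values were seen, had 3.60 and 45.2 at 0 mM nitrate against 69.0 and 42.6 in the control.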

How the data were processed

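Poly(A)-selected RNA of 10 cultures was sequenced, 1 library per condition. The deposited values are a signal, recorded as expression levels scaled by the authors for feature length and library depth, as judged from the values themselves. No source used here says whether they are FPKM or TPM. Tools listed in the submitters' processing notes, with no role or order, are Bowtie 0.12.8, RSEM 1.2.0 as well as edgeR 3.0.8. The read depth is unknown, so no counting interval was computed. All 10 value columns were used.

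Members were found by the stated rule on log2(value + 1). Slopes over 42, 75 and 150 mM NaCl were fitted by limma 3.58.1 in R 4.3.3, with the prior variance following the mean level, over families whose mean in those libraries reached 1. Benjamini-Hochberg adjustment ran over all of them, and calls were made at 0.05. The slope fit was tested on simulated data. Other fold changes are differences between single libraries and have no test. "All families" means the 9012 whose mean over 10 libraries reached 1. All 118 members pass this minimum. Named families, with a control value of at least 5, were the 4 highest in the control, the 4 with the widest nitrate gap, the 3 highest and 3 lowest relative to the control over 300 and 600 mM and over 75 and 150 mM NaCl, those at the margins and those sharing a number. Further families are named where a count is small. The members, lists and tests were chosen with earlier results of these data known. Alternatives were other pseudocounts, scalings, filters, margins and codings, and the rule without each nitrate library.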

Additional observations from a re-analysis of the deposited data

How the results depend on the processing

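Of 186 recomputed values, 124 kept their call or stayed within 1.5 times (counts) or 0.1 log2 units (medians) of the reported value, 50 moved further and 12 single-family slopes crossed the threshold, 4 of them losing their call (154_c0, 11_c0 and 108_c0 without a filter, and 108_c0 with median-ratio scaling). Counts were compared as numbers and not as shares of the set chosen, so a count can move with the size of the set alone. The alternative with a control value of at least 5 removed no member, so its values could not differ. Filters on the mean value left each single-family slope unchanged, and under the other alternatives none of these slopes changed sign. The median ratio of the members, which has no test, did: at 75 mM NaCl it was below 0 under 4 alternatives (-0.012 with a margin of 2, and 3 given below), and at 150 mM it was 0.001 under 1. The rule gave 126 families without the 0.38 mM library, including all 118, 42 with a margin of 2 log2 units, 55 when neither 300 nor 600 mM NaCl might be lowered, and 423 without the 0.75 mM library, the library on which membership depended most. It gave 94 to 164 under the other alternatives, of which those without a nitrate library other than the control were added after the data were seen. Similar counts can hold different families: equal library totals gave 112 but lost 20 of the 118 and added 14, a pseudocount of 5 lost 24, and median-ratio scaling lost 4 and added 23.

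Members at least 2-fold below the lowest higher-nitrate value at 75 mM NaCl numbered 0 as reported and 1 with a pseudocount of 0.1, with median-ratio scaling, with a margin of 2 or without the control in the rule, and 5 without 0.75 mM nitrate. At 150 mM NaCl they numbered 20 as reported, and 44 with median-ratio scaling, 35 with equal totals, 11 with a margin of 2, 2 when neither salt library was lowered and 125 without 0.75 mM nitrate. Members above the control by 2-fold or more at 75 mM NaCl numbered 4 as reported, and 2 with median-ratio scaling, 1 with equal totals, 2 with a margin of 2, 7 without 0 mM nitrate and 19 without 0.75 mM nitrate. At 150 mM NaCl they numbered 8 as reported, and 5 with a pseudocount of 5, 3 with a margin of 2, 13 without 0 mM nitrate and 24 without 0.75 mM nitrate. The median log2 ratio at 75 mM NaCl, 0.04 as reported, was -0.18 with median-ratio scaling, -0.23 with equal totals, 0.15 when neither salt library was lowered and -0.069 without 0.75 mM nitrate. At 150 mM NaCl it was -0.43 as reported, and -0.78, -0.74, -0.74 with median-ratio scaling, equal totals and a margin of 2. It was 0.001 when neither salt library was lowered, -0.28 without the control in the rule, -0.21 without 0 mM and -0.59 without 0.75 mM nitrate. Members at least 2-fold below the control at 150 mM NaCl numbered 22 as reported, and 48, 39, 14, 3 and 145 with median-ratio scaling, equal totals, a margin of 2, neither salt library lowered and without 0.75 mM nitrate. At 600 mM NaCl those below numbered 63 as reported, and 28 with a margin of 2, 1 when neither salt library was lowered and 180 without 0.75 mM nitrate, and those above numbered 9 as reported, and 3 with a margin of 2 and 40 without 0.75 mM nitrate. Members were chosen again under each of these alternatives.

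The slope over 42 to 150 mM NaCl was called in 165 of all families as reported, and in 0 without a filter on low values, 262 with a mean of at least 5 and 300 with log2 concentration. Of the members it was called in 3 as reported, and in 5 with median-ratio scaling, 6 with equal totals, 0 without a filter and 5 with log2 concentration. With 1 library per condition no replicate could be left out, and the fit without 150 mM NaCl could not give a test. No paired analysis was possible because each condition has 1 library. The causes of these shifts were not tested. Unknown depth limits what can be said of families near 0.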

Other observations

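Of the 8 families that the rule took in only without the 0.38 mM nitrate library, 77_c0 was the most abundant and was picked with its values known. It had 606, 740 and 382 in the 0, 0.38 and 0.75 mM nitrate libraries, against 1416, 2171 and 2222 at 1.5, 3 and 9 mM. Its values with 75, 150, 300 and 600 mM NaCl were 2851, 8196, 5825 and 7485. The difference of 0.38 mM from its neighbours in 77_c0 has no replicate, and that library has an RAA code like the one of 150 mM NaCl, where 77_c0 was highest. The part of the code in these values was not tested.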
